A study of Mus musculus with 36 samples.

Results

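Apoe, Clu, Apod, Apoc1, Abca1, Abcg1, Lpl and Lcat encode proteins that carry lipid outside cells, move it across the cell membrane or act on it once it has left. These 8 genes are described among the 25453 mouse genes to which the deposited transcripts could be assigned by position. They were picked by name, with the FPKM (fragments per kilobase of transcript, scaled to the mapped fragments of a library) of these same libraries by population and region in view. Their levels and differences are therefore a description, with no p-value. Genes were tested where 2 or more libraries reached 1 FPKM, which left 13578 genes. Of the 8, 7 passed this filter, and Lpl, which reached 1 FPKM in 1 library, did not. A gene that passed through the samples where it is high had to differ between samples, so the count that passed supports nothing.

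The series profiled RNA of mouse brain cells from 3 regions: olfactory bulb, cortex and brainstem. In each region there were 6 populations, named Neg, A, B, C, D and E, with 2 libraries for each of the 18 combinations and 36 libraries in all; A to E are called the lettered populations. The mice were of strain C57/Bl6, and every sample, Neg included, was labelled astrocyte, while the series text speaks of cell lines. The labels give no treatment, transgene or age. They do not say which antigens or reporter set the populations apart, what Neg stands for, whether animals were pooled, or whether the libraries paired in a group are from different animals. Spreads and p-values then measure only the difference between these libraries, which may be technical. Of the defining astrocyte markers, Slc1a3 was present in every library, at 2.18 to 347 FPKM, and Aldh1l1 was listed at 0 in brainstem Neg replicate 2 and cortex D replicate 2.

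Brain tissue makes its own cholesterol, because plasma lipoproteins do not cross the blood-brain barrier. Astrocytes secrete apolipoprotein E, which is loaded with cholesterol and phospholipid by the membrane pumps ABCA1 and ABCG1, and the particle is matured by LCAT, the enzyme that esterifies cholesterol. Liver X receptors, which sense oxysterols, drive transcription of Abca1, Abcg1 and Apoe. Apolipoprotein E and clusterin (Clu, also called apolipoprotein J) are the main apolipoproteins of brain lipoproteins, apolipoprotein D (Apod) is a small lipid-binding lipocalin, apolipoprotein C1 (Apoc1) is a short exchangeable apolipoprotein encoded beside Apoe, and lipoprotein lipase (Lpl) frees fatty acids from triglyceride.

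All 8 genes are annotated as protein coding in GENCODE vM21 on GRCm38, the assembly also called mm10. Apoe (ENSMUSG00000002985) spans chr7:19696109-19699188 and Apoc1 (ENSMUSG00000040564) lies beside it at chr7:19689481-19692660, both on the minus strand. Clu (ENSMUSG00000022037) spans chr14:65968483-65981547 on the plus strand, and Apod (ENSMUSG00000022548) chr16:31296192-31314808 on the minus strand. Abca1 (ENSMUSG00000015243) spans chr4:53030787-53159895 on the minus strand, and Abcg1 (ENSMUSG00000024030) chr17:31057675-31117988 on the plus strand. On chromosome 8, Lpl (ENSMUSG00000015568) spans chr8:68880491-68907448 on the plus strand and Lcat (ENSMUSG00000035237) chr8:105939551-105943382 on the minus strand. The values are sums over the transcripts of each gene, and the kit does not mark strand, so reads from overlapping antisense transcripts cannot be told apart.

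The promoters of the carrier that was highest, the carrier that differed most between regions and the pump that was highest in population B are shown to set the genes apart by sequence before their levels are compared. RefSeq promoter entries (GRCm38.p6, 250 bases before to 50 after the start) matched 4 of the 8 genes, all on the minus strand. Each is written 5′ to 3′ in lower case, and capitals mark matches, on either strand, to a TATA box (TATAAA), a GC box (GGGCGG), an E-box (CACGTG) and a pair of nuclear receptor half-sites (NGGTNA and NGGTCA spaced 4 bases apart, the arrangement that liver X receptors bind). The windows are chr7:19699139-19699438 for Apoe, chr16:31314759-31315058 for Apod and chr4:53159846-53160145 for Abca1.
Apoe: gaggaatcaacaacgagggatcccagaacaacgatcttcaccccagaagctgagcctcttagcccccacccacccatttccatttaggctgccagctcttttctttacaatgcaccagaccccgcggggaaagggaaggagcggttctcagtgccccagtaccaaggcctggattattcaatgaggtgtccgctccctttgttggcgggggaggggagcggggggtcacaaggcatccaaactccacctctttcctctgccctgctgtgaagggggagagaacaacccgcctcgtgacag
Apod: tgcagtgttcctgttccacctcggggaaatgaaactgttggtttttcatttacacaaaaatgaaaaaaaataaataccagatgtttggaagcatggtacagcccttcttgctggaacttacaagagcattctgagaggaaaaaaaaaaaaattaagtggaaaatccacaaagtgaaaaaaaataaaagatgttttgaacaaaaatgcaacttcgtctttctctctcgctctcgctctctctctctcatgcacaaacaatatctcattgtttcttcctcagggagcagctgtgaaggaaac
Abca1: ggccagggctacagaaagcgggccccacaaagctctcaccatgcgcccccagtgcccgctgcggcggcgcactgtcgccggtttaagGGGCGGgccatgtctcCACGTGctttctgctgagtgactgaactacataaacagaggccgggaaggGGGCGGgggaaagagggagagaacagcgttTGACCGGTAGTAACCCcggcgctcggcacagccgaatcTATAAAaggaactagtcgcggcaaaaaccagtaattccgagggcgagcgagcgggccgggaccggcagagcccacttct
Only Abca1 among the 4 held any of these letters. Its TATA box starts 29 bases before the transcription start, its GC boxes 163 and 97, its E-box 147 and its half-site pair 67 bases before it, and none of these matches overlap. Of 27025 mouse promoters of that length, 14.2% held the TATA box, 35.9% the GC box, 7.2% the E-box and 0.2% (52 promoters) the half-site pair. The Apod window was the poorest in G and C, at 37.3%, beside 57.7% in Apoe, 61.3% in Lcat (chr8:105943353-105943652) and 62.7% in Abca1; the median promoter held 52.7%. A match is a description of the letters and not a shown binding site, and no match says only that these letters are not in the window.

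The libraries differed in depth and in how much of their FPKM fell on nuclear genes. Relative depth, taken as the ratio of deposited coverage to FPKM, was 0.0695 in brainstem E replicate 1 and 0.316 in olfactory bulb E replicate 1, against 1.16 to 4.07 in the others. Brainstem D replicate 2 and cortex E replicate 2 carried Frzb, a marker of olfactory ensheathing glia, at 44.8 and 20.8 FPKM. These 4 libraries are drawn as open symbols, and results that rest on them are also given without them. Every B library, at a relative depth of 2.71 to 4.07, was deeper than every other library. The next was olfactory bulb D replicate 1 at 2.37, so depth cannot be told apart from population B. The nuclear FPKM sum ran from 23005 to 163130 and between 2104 and 10357 genes reached 1 FPKM, so differences were also computed after rescaling each library to one sum and after quantile normalization. Titles carry 2 number series, the second holding 15 libraries, among them all D and E libraries. The labels do not say that the series is a batch, and for D and E it cannot be told apart from the population.

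**Figure D1:**
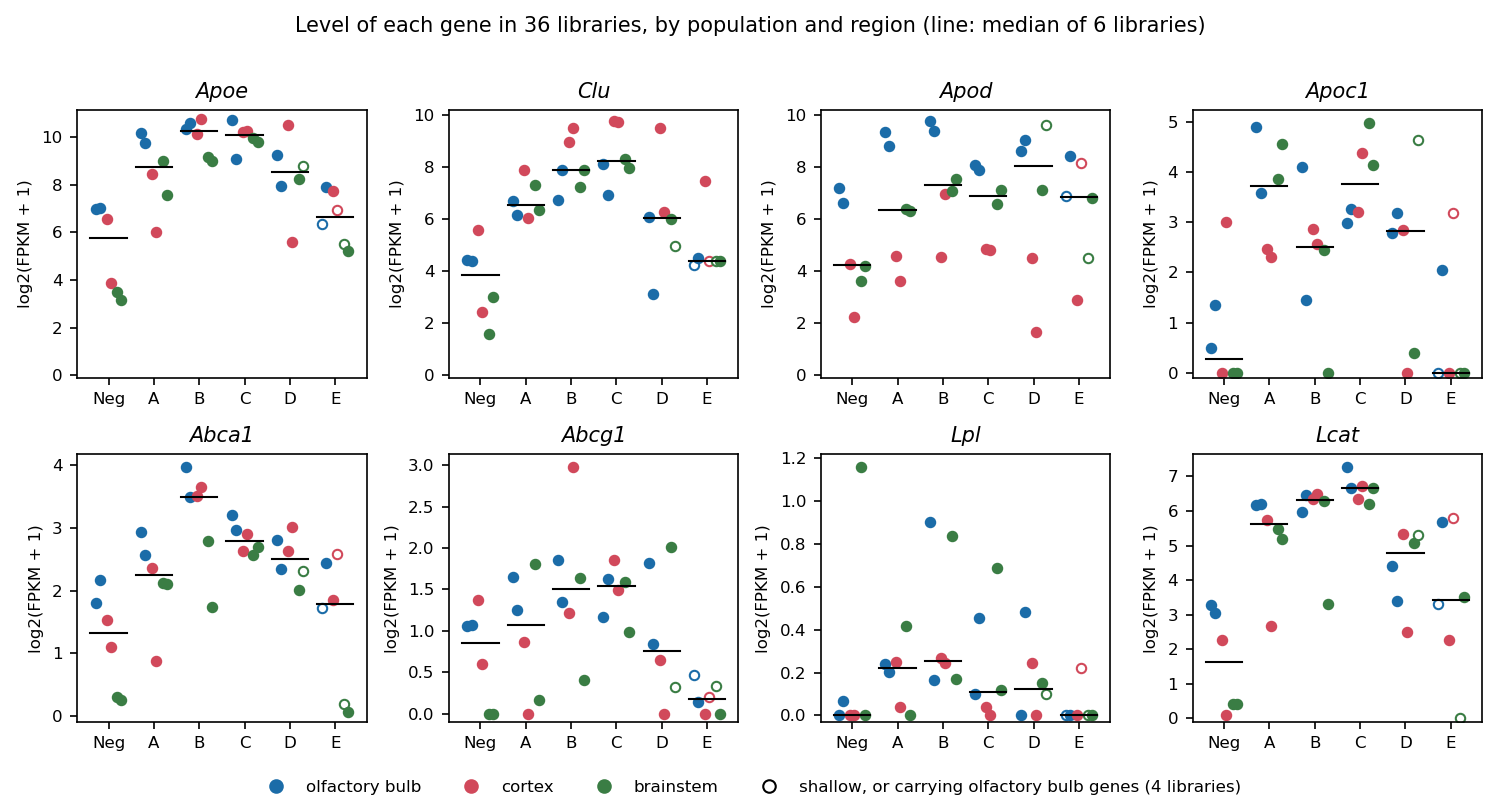
Level of each of the 8 genes, as log2(FPKM + 1), in 36 libraries by population (x axis) and region (colour); the line is the median of 6 libraries and open symbols are the 4 libraries that were shallow or carried olfactory bulb genes. Apoe reached 1719 FPKM in B and stayed at or under 128.6 FPKM in Neg, while Lpl never passed 1.23 FPKM.

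Apoe was the most abundant of the 8 genes in 25 of 36 libraries, and in all 6 libraries of B and all 6 of C. In Neg it had a lowest, median and highest level of 8.01, 54.1 and 128.6 FPKM. In B these were 508, 1214 and 1719 FPKM, and in C 543, 1097 and 1663 FPKM. Every B and C library therefore stood above every Neg library. After rescaling each library to one sum, the lowest values were 4483 in B and 6266 in C, and the highest in Neg was 2304. The share of all genes with such a separation was not computed, so nothing particular to Apoe is read from it. A ran at 63.4, 433 and 1140 FPKM, D at 47.6, 370 and 1473 FPKM, and E at 36.2, 101 and 241 FPKM. By median the order was B, C, A, D, E and Neg, and each population overlapped its neighbour in that order, so no neighbouring pair was separated by its spread. Of the 30 lettered libraries 24 lay above the highest Neg library, and 23 of 26 did so once the 4 libraries were left out. In bulk RNA, fewer cells of a type and less RNA per cell cannot be told apart.

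Within a region the Apoe floor itself differed. The Neg libraries held 125 and 129 FPKM of Apoe in the olfactory bulb, 94.3 and 13.8 in the cortex, and 10.3 and 8.01 in the brainstem. Set against the Neg of its own region, 12 of 15 lettered groups had both libraries above both Neg libraries; olfactory bulb E, cortex A and cortex D did not. Cortex D was the most divided pair, with Apoe at 1473 and 47.6 FPKM, and Clu split there in the same way, at 717 and 76.2 FPKM. Over A to E, Apoe ran at 80.4, 735 and 1663 FPKM (lowest, median, highest of 10) in the olfactory bulb, at 47.6, 732 and 1719 in the cortex and at 36.2, 472 and 989 in the brainstem, which overlap throughout.

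Clu followed a similar order by population, but its highest group lay elsewhere. It ran at 1.97, 13.5 and 46.6 FPKM in Neg, at 106, 236 and 728 in B and at 120, 297 and 872 in C (lowest, median, highest of 6). A held 65.3, 92.6 and 236 FPKM, D 7.66, 65.7 and 717, and E 18, 20.0 and 178. On the deposited scale all A, B and C libraries stood above all Neg libraries for Clu, while D and E overlapped Neg. After rescaling each library to one sum, A overlapped Neg too. Olfactory bulb A replicate 2 then held 766 and cortex Neg replicate 1 held 773. B and C stayed above Neg, with lowest values of 1028 and 1452. The share of all genes with such a separation was not computed. The 2 cortex C libraries were the highest, at 872 and 848 FPKM, whereas olfactory bulb C held 277 and 120 FPKM and brainstem C 317 and 248 FPKM. By median the order was C, B, A, D, E and Neg, with all neighbours overlapping.

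Apod was the carrier set by region more than by population. Over A to E it had a lowest, median and highest level of 118, 422 and 885 FPKM in the olfactory bulb, 2.18, 22.6 and 288 FPKM in the cortex and 22.0, 124 and 802 FPKM in the brainstem. Without the 4 libraries, the olfactory bulb ran from 237 to 885 FPKM and overlapped neither the brainstem, at 78.6 to 185, nor the cortex, at 2.18 to 125. The cortex overlapped the brainstem through cortex B replicate 2, at 125 FPKM, alone. Those left out held the highest Apod of the cortex (288) and the brainstem (802) and the lowest of the olfactory bulb (118). The cortex and brainstem libraries among them were set aside for Frzb, an olfactory ensheathing glia marker. The gap around the olfactory bulb therefore follows from leaving them out and is no separate evidence of a regional difference. Within populations, Apod was at 656 and 449 FPKM in olfactory bulb A against 22.9 and 11.3 in cortex A, at 885 and 679 in olfactory bulb B against 22.4 and 125 in cortex B, and at 274 and 237 in olfactory bulb C against 27.7 and 27.4 in cortex C. The same separation held in D, at 395 and 533 against 21.7 and 2.18 FPKM, and in Neg, at 146 and 98.5 against 18.3 and 3.69 FPKM. E was the exception, with 118 and 348 FPKM in the olfactory bulb and 6.46 and 288 in the cortex, where the 288 FPKM belong to cortex E replicate 2. By population Apod ran, as lowest, median and highest, at 3.69, 18 and 146 FPKM in Neg and at 22.4, 160 and 885 in B. The others were A at 11.3, 80.8 and 656, C at 27.4, 118 and 274, D at 2.18, 266 and 802, and E at 6.46, 115 and 348 FPKM. Only 12 of 30 lettered libraries lay above the highest Neg library, and 10 of 26 without the 4 libraries.

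Apoc1, the short apolipoprotein encoded beside Apoe, was much lower than Apoe on the same per-length scale. It ran at 3.93, 12.3 and 28.9 FPKM in A and at 6.88, 12.6 and 30.6 in C, the populations in which no library was listed at 0. It was listed at 0 in 3 Neg libraries, 1 B, 1 D and 4 E libraries, with medians of 0.206 FPKM in Neg, 4.70 in B, 6.06 in D and 0 in E. C and A therefore led the order by median, ahead of D, B, Neg and E, although B had the highest median of Apoe. The highest Neg value was 7.08 FPKM, in cortex Neg replicate 2, and 13 of the 30 lettered libraries exceeded it (11 of 26 without the 4 libraries). These counts hold on the deposited scale only. After rescaling each library to one sum, cortex Neg replicate 2 held 275 and no lettered library exceeded it. The highest lettered value was then 254, in olfactory bulb A replicate 1. Its leading transcript is 432 bases long, and the deposited interval around its FPKM had a median half-width of 40.3%, against 5.26% for Apoe, 5.39% for Clu and 6.50% for Apod.

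Abca1, the pump that hands cholesterol and phospholipid to apolipoproteins, was highest in B, whose libraries were also the deepest. It ran at 2.34, 10.3 and 14.8 FPKM there, against 4.95, 5.96 and 8.20 in C, 3.03, 4.64 and 7.05 in D and 0.840, 3.74 and 6.67 in A (lowest, median, highest of 6). E held 0.0367, 2.46 and 4.99 FPKM and Neg 0.193, 1.51 and 3.51. Within B, Abca1 was at 14.8 and 10.2 FPKM in the olfactory bulb and at 10.4 and 11.6 in the cortex, but at 5.93 and 2.34 in the brainstem, inside the range of the other populations. The lowest pair was brainstem E, at 0.137 and 0.0367 FPKM, under the brainstem Neg pair of 0.224 and 0.193. Set against its own region's Neg, both libraries lay above in 12 of 15 groups, all but olfactory bulb E, cortex A and brainstem E.

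Abcg1, the partner pump that exports sterol to formed particles, stayed low. Its median was 1.91 FPKM in C, 1.84 in B, 1.10 in A, 0.800 in Neg, 0.683 in D and 0.129 in E, and its highest value was 6.90 FPKM in cortex B replicate 2. It was listed at 0 in 6 libraries, and the deposited interval of its leading transcript had a median half-width of 27.2%. In E no library passed 0.383 FPKM, while the olfactory bulb Neg libraries both held 1.09 or 1.10 FPKM.

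Over all 30 lettered libraries, and on the deposited scale, Lcat, the cholesterol-esterifying enzyme, stood above Neg in more of them than any other of the 8 genes. Without the 4 libraries Lcat tied with Apoe and Clu. It ran at 0.0823, 2.09 and 8.69 FPKM in Neg and at 72.4, 101 and 154 in C, and 26 of 30 lettered libraries lay above the highest Neg library (23 of 26 without the 4 libraries). A held 5.43, 48.0 and 72.6 FPKM, B 8.87, 79.0 and 88.8, D 4.66, 26.7 and 39.5, and E 0, 9.69 and 54.1. On the deposited scale C did not overlap D, E or Neg, and met A between its own lowest value, 72.4 FPKM, and the highest of A, 72.6 FPKM. After rescaling each library to one sum, C overlapped E. The lowest C value was then 459, and olfactory bulb E replicate 2 and cortex E replicate 2 held 759 and 898. The share of all genes with such separations was not computed. The B range was set at its low end by brainstem B replicate 2, at 8.87 FPKM, where the other brainstem B library held 77.4. Lpl, which frees fatty acids from triglyceride, was at most 1.23 FPKM, in brainstem Neg replicate 1. It was listed at 0 in 13 libraries, and no lettered library exceeded that Neg value, so no level of Lpl could be compared at this depth.

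Together the 8 genes took 0.111% to 0.561% of all gene FPKM in Neg (median 0.212%) and a median of 1.04% in A to E. The share was 0.829% to 2.33% in B, 0.957% to 1.91% in C, 0.427% to 1.77% in A, 0.354% to 1.59% in D and 0.408% to 1.01% in E. Where Apoe did not lead, Apod led in 9 libraries, 4 of them in E, and Clu in 2, cortex A replicate 2 and cortex D replicate 2. Apoe led in 22 of the 30 lettered libraries.

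Differences between lettered populations and Neg were taken from 1 fit over all libraries with limma on log2(FPKM + 1), in which A to E and the 3 regions weigh equally. A gene is called here at a Benjamini-Hochberg adjusted p under 0.05 over all genes tested. On this scale Apoe was higher in A to E by 3.51 ± 0.46 (log2 difference ± SE), Lcat by 3.50 ± 0.53 and Clu by 3.26 ± 0.48. Apod was higher by 2.04 ± 0.52, Apoc1 by 1.76 ± 0.53 and Abca1 by 1.25 ± 0.27. The 6 named genes were called and Abcg1, at 0.34 ± 0.29, was not; 20.4% of all genes tested were called, 20.2% of all genes as higher. The rule for choosing the genes used these values, so nothing is read from that count. Their median difference was 2.04, beside 0.50 over all genes tested.

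Part of the gap between Neg and the lettered libraries moved with the scale. Apoe was higher by 2.41 after rescaling and by 2.35 after quantile normalization, Clu by 2.27 and 2.14, and Lcat by 3.37 and 2.55, and these 3 genes were called in every one of the 43 alternatives fitted. Apod gave 0.94 and 0.95, Apoc1 2.40 and 1.21, and Abca1 0.77 and 0.40, none of them called on either scale. Abcg1 turned to -0.09 after quantile normalization. The median of all genes was 0.50 on the deposited scale, 0.39 once rescaled and 0.00 after quantile normalization. The Apoc1 call was lost without any one of olfactory bulb Neg replicate 1, cortex Neg replicate 1 and the 2 brainstem Neg libraries (differences of 1.26 to 1.76), and the Apod call without cortex Neg replicate 2, at 1.70. Over all genes, 2746 were called higher and 19 lower on the deposited scale, 332 and 144 once rescaled, and 396 and 549 with quantiles equalized. Leaving out single libraries moved the 2765 genes to 605 for cortex Neg replicate 2, 945 for brainstem Neg replicate 2, 1327 for olfactory bulb Neg replicate 1, 1390 for olfactory bulb Neg replicate 2, 1637 for brainstem Neg replicate 1 and 4217 for cortex D replicate 2.

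**Figure D2:**
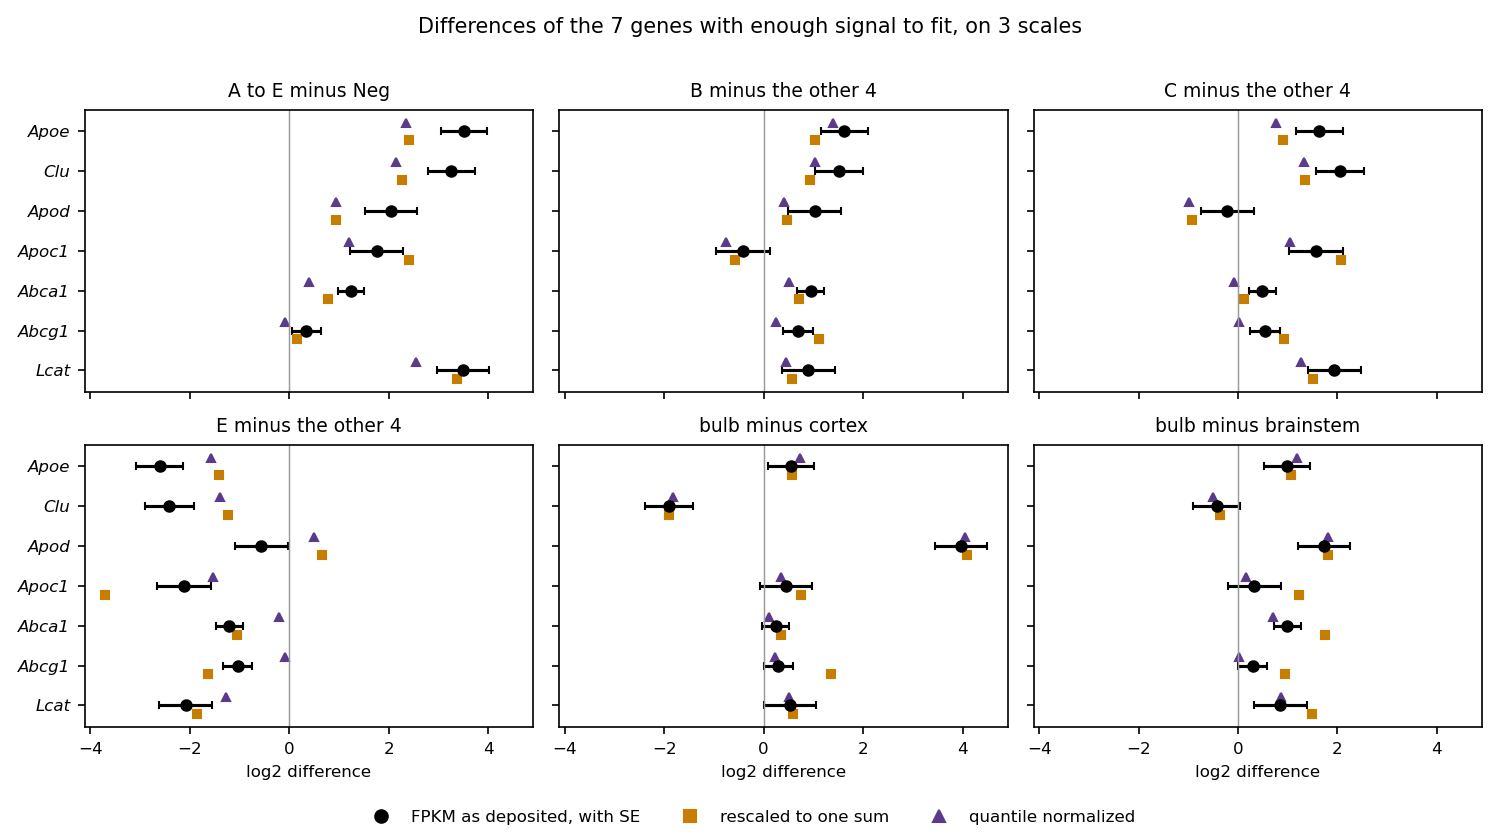
Log2 difference of the 7 genes that passed the filter in 6 comparisons (x axis); black points with bars are the difference and its standard error on the deposited scale, squares are once rescaled and triangles after quantile normalization. Apod stood at 3.98 in olfactory bulb minus cortex with 4.10 and 4.04 on the other scales, while Abca1 in A to E minus Neg shrank from 1.25 to 0.77 and 0.40.

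Markers of astrocytes moved with some of these genes. All 14 astrocyte markers were called higher in A to E than in Neg (9 after rescaling, 11 after quantile normalization), and their summed FPKM was 99.2 to 562 in Neg, 641 to 1973 in A, 1309 to 3605 in B, 1866 to 4013 in C, 436 to 4268 in D and 272 to 1283 in E. Across the 36 libraries, on rescaled log2 values, the mean of these markers had a Pearson r of 0.85 with Clu, 0.83 with Apoe and 0.57 with Lcat, but of 0.41 with Abcg1, 0.37 with Apoc1, 0.33 with Abca1, 0.08 with Lpl and -0.15 with Apod. Oligodendrocyte precursor markers had an r of 0.65 with Abcg1, 0.59 with Apoe and 0.56 with Apoc1. These correlations describe libraries that share depth and scale. Of other lists, 5 of 7 choroid plexus, 5 of 7 olfactory ensheathing glia and 1 of 14 microglia markers were also called higher in A to E. Their part in the differences of the 8 genes was not tested.

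B, C and E were each set against the mean of the other 4 lettered populations, so these comparisons share libraries and are given side by side. In B, Apoe was higher by 1.62 ± 0.47, Clu by 1.51 ± 0.49 and Abca1 by 0.95 ± 0.27, and these 3 were called; 15.8% of all genes were called, 15.4% as higher. In C, Apoe was higher by 1.63 ± 0.47, Clu by 2.05 ± 0.49 and Lcat by 1.94 ± 0.54, again 3 called, beside 7.52% of all genes (7.51% as higher). Abca1 in C differed by 0.49 ± 0.27 and Lcat in B by 0.90 ± 0.54, neither called. Apoc1 was at 1.57 ± 0.54 in C and at -0.42 ± 0.54 in B. A and D gave no called gene among the 8, beside 0% and 0.103% of all genes; in A, 480 genes had an unadjusted p under 0.05 in limma, 556 once rescaled and 712 after quantile normalization, with 0 called on each scale. The largest differences in D were those of Clu, -1.04 ± 0.49, and Lcat, -0.94 ± 0.54.

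The B and C counts changed with single libraries and with the number series. With the number series as a term, or in its first part alone, none of the 8 was called in B or C: as a term, Apoe, Clu and Abca1 in B were at 1.06, 1.22 and 0.59, and Apoe, Clu and Lcat in C at 0.79, 1.61 and 0.62. The first part alone holds no D or E library, so there B was set against the mean of A and C, and C against the mean of A and B. These other comparisons gave 0.45, 0.09 and 0.75 for the same genes in B and 0.42, 0.90 and 0.59 in C. In B the count of 3 was 0 without olfactory bulb B replicate 1 or cortex B replicate 2, and 1 without olfactory bulb B replicate 2 or brainstem B replicate 1, although in the fits without a library that lost a call Apoe kept a difference of 1.52 to 1.66, Clu of 1.32 to 1.7 and Abca1 of 0.77 to 0.92. In C it was 0 without olfactory bulb C replicate 1, cortex C replicate 1 or brainstem C replicate 1, and 1 without cortex C replicate 2 or brainstem C replicate 2. The differences that lost their calls there were 1.85 to 2.04 for Clu, 1.84 to 2.01 for Lcat and 1.36 to 1.66 for Apoe. The Apoe call in C was also lost without any one of olfactory bulb A replicate 2, cortex A replicate 2, brainstem A replicate 2, cortex B replicate 1 and olfactory bulb D replicate 2, at 1.53 to 1.61. The Clu call in B was lost without any one of the B libraries, among them cortex B replicate 1 (1.60) and brainstem B replicate 2 (1.40). Without cortex B replicate 1, Abcg1 was called in B in its place, at 0.99. Without the 4 libraries both counts stayed at 3, but in B Apod (1.19) was called and Clu (1.33) was not, and in C Apoc1 (1.79) was called and Apoe (1.56) was not. No gene of the 8 was called in C after rescaling or quantile normalization, where Apoe gave 0.91 and 0.76, Clu 1.34 and 1.32 and Lcat 1.50 and 1.27. Abca1, not called in C on any of these scales, gave 0.12 and -0.08. In B Apoe alone was called on each of these scales, at 1.03 and 1.40. All 14 microglia markers were called higher in B, with a summed FPKM of 852 to 1588 against 31.4 to 223 in Neg, 78.7 to 260 in A, 108 to 664 in C, 32.5 to 222 in D and 18.2 to 74.3 in E; the defining marker C1qb was present in every library of Neg, A, B, C and D and listed at 0 in 3 E libraries. In C, 12 of 14 astrocyte and 3 of 7 choroid plexus markers were called higher. Microglia also make Apoe and Abca1; the part of these cells in the B values was not tested.

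In E nearly all of these genes were lower. The differences were -2.61 ± 0.47 for Apoe, -2.41 ± 0.49 for Clu, -2.13 ± 0.54 for Apoc1, -2.08 ± 0.54 for Lcat, -1.20 ± 0.27 for Abca1 and -1.04 ± 0.30 for Abcg1, 6 called in all. They stood beside 42.6% of all genes called and a median over all genes of -0.66. Apod was the exception, at -0.56 ± 0.53, and changed sign to 0.65 once rescaled and 0.49 after quantile normalization. Apoe, Clu and Apoc1 kept their calls after rescaling, at -1.41, -1.24 and -3.70, and Apoe and Clu after quantile normalization, at -1.57 and -1.39. Without cortex E replicate 2, the library that carried olfactory bulb genes, Apod was called too, at -1.44. Without the 4 libraries 5 of the 8 were called, Lcat (-1.68) no longer among them. Once the number series, whose second part holds all E libraries, entered the fit as a term, none of the 8 was called and Apoe stood at -1.76. All 14 astrocyte and 13 of 14 microglia markers were called lower in E as well (4 and 8 without the 4 libraries). So were 7 of 8 oligodendrocyte precursor, 7 of 7 choroid plexus, 7 of 9 mural and meningeal, 6 of 8 endothelial and 6 of 8 blood cell markers, against 3 of 7 olfactory ensheathing glia, 2 of 10 oligodendrocyte and 1 of 10 neuron markers. The part of these cells in the E values was not tested, and genes at 1 FPKM or more numbered 3002 to 6779 in its libraries.

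Between regions Apod differed most. Over A to E it was higher in the olfactory bulb than in the cortex by 3.98 ± 0.52, and it was called there in every one of 43 alternatives, at 3.45 to 4.66. Clu went the other way, with olfactory bulb minus cortex at -1.90 ± 0.48 and called, so 2 of the 8 genes were called beside 3.73% of all genes. The Clu call was lost without cortex A replicate 1, olfactory bulb D replicate 2 or cortex E replicate 1, at -1.72, -1.60 and -1.59. Against the brainstem, Apod was higher in the olfactory bulb by 1.72 ± 0.52 and Abca1 by 0.99 ± 0.27, both called beside 5.19% of all genes, and Apoe differed by 0.99 ± 0.46 without a call. That Apod call was lost in 30 of 43 alternatives, with values of 1.47 to 2.11 over all of them, and both calls were lost without any one of olfactory bulb A replicate 1, brainstem A replicate 2, olfactory bulb B replicate 1, brainstem B replicate 2, olfactory bulb C replicate 1, olfactory bulb D replicate 1, brainstem D replicate 1 and olfactory bulb E replicate 2. Cortex minus brainstem was -2.25 ± 0.52 for Apod, the 1 called gene of the 8 beside 1.75% of all genes, and it was not called without cortex B replicate 1, cortex E replicate 1 or brainstem E replicate 2. Clu, at 1.47 ± 0.48 in that comparison, became a second called gene without cortex D replicate 2 or cortex E replicate 2, at 1.8 and 1.78. Leaving out the 4 libraries together kept both olfactory bulb minus cortex calls, at 4.66 for Apod and -2.19 for Clu.

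Markers of olfactory ensheathing glia, the glia that wrap olfactory axons, moved with Apod. Of 7 such markers 5 were called higher in the olfactory bulb than in the cortex and 4 higher than in the brainstem. Their summed FPKM over A to E was 725 to 4210 in the olfactory bulb, 107 to 2455 in the cortex and 256 to 4785 in the brainstem, and without the 4 libraries 1740 to 4210, 107 to 862 and 354 to 1369. Frzb, for which cortex E replicate 2 and brainstem D replicate 2 were set aside, is on this list. Across the 36 libraries Apod had a Pearson r of 0.83 with the mean of this list and Clu one of -0.26. Cortex E replicate 2 and brainstem D replicate 2, at 288 and 802 FPKM of Apod, were the libraries of their regions in which Apod was highest. Choroid plexus markers summed to 1.85 to 649 FPKM in the olfactory bulb, 13.1 to 5540 in the cortex and 14.2 to 23835 in the brainstem, and their mean had an r of 0.54 with Clu. Whether cells of these kinds account for the regional values was not tested.

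**Figure D3:**
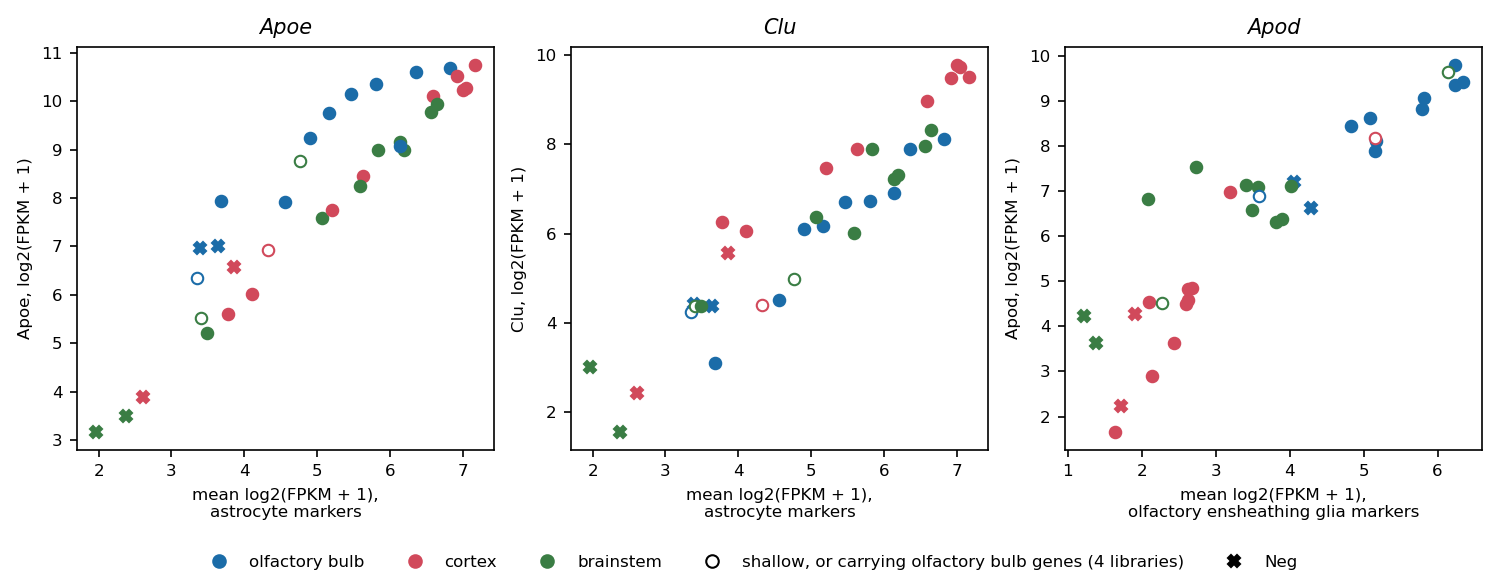
Apoe and Clu against the mean log2(FPKM + 1) of 14 astrocyte markers, and Apod against that of 7 olfactory ensheathing glia markers, in 36 libraries coloured by region; crosses are Neg and open symbols the 4 libraries that were shallow or carried olfactory bulb genes. Apoe and Clu climb with the astrocyte markers in all regions. The lettered olfactory bulb libraries, olfactory bulb E replicate 1 excepted, take the upper right of the Apod panel together with brainstem D replicate 2 and cortex E replicate 2. Olfactory bulb E replicate 1, at a marker mean of 3.59, and the olfactory bulb Neg libraries, at 4.05 and 4.29, lie near brainstem D replicate 1, at 4.02.

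A ratio of 2 genes within a library does not depend on how that library was scaled. The ratios were chosen after the values were seen. Clu per Apoe was 0.0313 to 0.224 in the olfactory bulb over A to E (median 0.101), 0.165 to 1.60 in the cortex (0.678) and 0.0701 to 0.544 in the brainstem (0.314). Without the 4 libraries the cortex, at 0.424 to 1.60, did not overlap the olfactory bulb, at 0.0313 to 0.222. Neg kept the same direction between these regions, at 0.164 and 0.154 in the olfactory bulb against 0.494 and 0.320 in the cortex, while brainstem Neg held 0.192 and 0.890. By median, cortical libraries therefore held more Clu for each unit of Apoe than olfactory bulb libraries. The libraries left out held the lowest ratio of the cortex, 0.165, and the highest of the olfactory bulb, 0.224.

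Apod per Apoe ran the other way between regions. Its median over A to E was 0.612 in the olfactory bulb, 0.387 in the brainstem and 0.0380 in the cortex. The olfactory bulb spanned 0.165 to 2.17 and the cortex 0.0147 to 2.38, or 0.0147 to 0.179 without the 4 libraries, which overlaps the olfactory bulb at one end. By population the median was 0.128 in C, 0.935 in Neg and 1.46 in E. Apod per Clu was 0.988 to 69.5 in the olfactory bulb, where olfactory bulb C replicate 1 gave the lowest value, and 0.0286 to 0.174 in the cortex without the 4 libraries, with no overlap. With them the cortex reached 14.4, in cortex E replicate 2, and overlapped the olfactory bulb. That library was set aside for Frzb, so the gap follows from leaving it out.

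**Figure D4:**
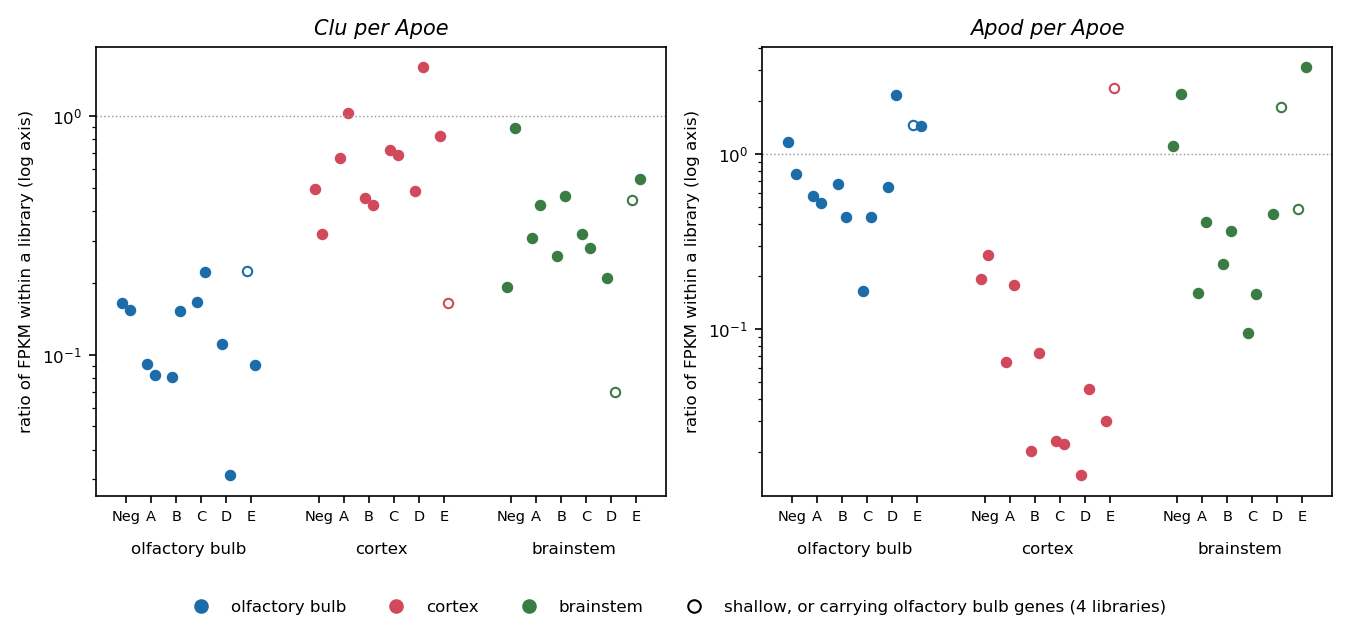
Ratio of Clu to Apoe (left) and of Apod to Apoe (right) in each library, on a log axis, by region and population; each point is 1 library, open symbols are the 4 libraries that were shallow or carried olfactory bulb genes, and the dotted line marks equal FPKM. Clu per Apoe has a median of 0.678 in the cortex and 0.101 in the olfactory bulb over A to E, and Apod per Apoe 0.0380 and 0.612.

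The export genes were also set against Apoe. Abca1 per Apoe was 0.0198 to 0.0822 in Neg against 0.00574 to 0.0171 in A, 0.00461 to 0.0112 in B and 0.00434 to 0.0125 in C, none of which overlaps Neg. D, at 0.00353 to 0.148, and E, at 0.00101 to 0.0412, overlapped it. Apoe was higher in A to E than in Neg by 3.51 and Abca1 by 1.25 on the log2 scale, and any gene that rose less than Apoe has a lower ratio to it. The share of all genes with such a gap was not computed, so nothing particular to Abca1 is read from it. In brainstem Neg, Abca1 was at only 0.224 and 0.193 FPKM. Lcat per Apoe had medians of 0.0418 in Neg, 0.0852 in A, 0.0540 in B, 0.0883 in C, 0.0634 in D and 0.160 in E, and each range overlapped that of Neg. Over the 36 libraries, on rescaled log2 values, Apoe had a Pearson r of 0.70 with Lcat, 0.65 with Clu, 0.56 with Abcg1, 0.54 with Abca1, 0.50 with Apoc1 and 0.24 with Apod. Clu and Apod stood at -0.45. These are descriptions over libraries that share depth and composition.

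The genes whose pattern over the 36 libraries was most like each of the 8, Lpl excepted, were taken by Pearson r on the same values. Apoe was followed most closely by Slc27a1, a fatty acid transport protein, with r of 0.90, then Plxnb1 (0.87) and Dag1 (0.85). The nearest to Clu were Phlpp1 (0.79), Slc7a10 (0.77), a neutral amino acid transporter of astrocytes, and the metallothionein Mt1 (0.77). The nearest to Apod were Heyl (0.89), Plce1 (0.88) and Pbx3 (0.87). Abca1 had the peroxisomal half-transporter Abcd3 (0.85), Lrrc1 (0.84) and the peptide transporter Slc15a2 (0.84), and Abcg1 had Rexo1 (0.89), Ciao2a (0.84) and Sumf1 (0.83). Apoc1 had Mmp17 (0.82), Uqcrc1 (0.82) and Rab34 (0.79), and Lcat had Eif3l (0.82), Ppp2r5d (0.80) and Vps4a (0.80). Several of these neighbours were low, with medians of 0.503 FPKM for Mmp17, 1.26 for Lrrc1, 1.37 for Rexo1 and 1.49 for Rab34. Shared detection may add to such r, which was not tested.

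Beyond the 8 genes, 67 genes of the same pathway were listed and 50 of them tested. The list was made with earlier results of these data known. Its counts and medians, here and in the comparisons below, are therefore a description beside those of all genes and support nothing about the list. Adjusted p-values of single pathway genes are over all genes tested, and these genes were named for being called. Against Neg, 24 of the 50 (27 without the 4 libraries) rose in A to E and none fell, beside 20.2% of all genes called higher, with a median difference of 0.88 beside 0.50 over all genes tested. By role these were 6 of 11 lipoprotein receptors, 4 of 9 other lipid transporters, 7 of 12 enzymes, 5 of 12 sterol sensors and nuclear receptors and 2 of 6 genes of intracellular sterol transport. Pla2g7, a secreted phospholipase carried on lipoproteins, rose by 2.90 ± 0.46 (adjusted p = 0.000171, limma with Benjamini-Hochberg adjustment), from a median of 5.94 FPKM in Neg to 72.3 in A to E. Srebf1, the transcription factor of fatty acid synthesis, rose by 2.47 ± 0.44 (limma, adjusted p = 0.000529), Mfsd2a, which imports lysophospholipid carrying docosahexaenoic acid, by 2.31 ± 0.39 (limma, adjusted p = 0.000377), and Lrp1, a receptor for Apoe particles, by 2.11 ± 0.41 (limma, adjusted p = 0.00123). The count was 6 after rescaling, where the Mfsd2a call was lost, and 11 higher and 1 lower after quantile normalization. It was 15 without olfactory bulb Neg replicate 2 and 12 without cortex Neg replicate 2. Other apolipoproteins were nearly absent: none of 11 was tested, Apoc3 reached 5.31 FPKM in cortex C replicate 2 and Apoa2 1.71 FPKM at most, and Apoa4, Apoa5, Apoc2, Apoc4 and Apof were listed at 0 throughout.

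In B, 20 of the 50 pathway genes rose against the other lettered populations and none fell, beside 15.4% of all genes called higher, with a median of 0.79 beside 0.35 over all genes. Abca9, a transporter related to Abca1, rose by 2.44 ± 0.30 (limma, adjusted p = 8.91e-07) and stood at 5.84, 7.09 and 31.6 FPKM in B (lowest, median, highest of 6) against at most 3.86 FPKM in any other lettered library. Cyp27a1, which makes an oxysterol that liver X receptors sense, rose by 1.98 ± 0.36 (limma, adjusted p = 0.000247), Nr1h2, which encodes liver X receptor beta, by 1.89 ± 0.38 (limma, adjusted p = 0.000917), and Lpcat3, a liver X receptor target that remodels phospholipid, by 1.78 ± 0.30 (limma, adjusted p = 9.97e-05). The count was 5 after rescaling, 5 higher and 1 lower after quantile normalization, 5 with the number series as a term or in its first part alone, and 13 without cortex B replicate 2. The Cyp27a1 call was lost after quantile normalization and the Nr1h2 call in the first number series alone. The 14 microglia markers rose in the same libraries, and their part in these values was not tested.

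In C, 5 of the 50 pathway genes rose (3 without the 4 libraries), a share near the 7.51% of all genes called higher, with a median of 0.48 beside 0.39 over all genes. Npc2, a lysosomal cholesterol carrier, rose by 1.55 ± 0.39 (limma, adjusted p = 0.0222), Lmf1, which matures lipases, by 1.50 ± 0.47 (limma, adjusted p = 0.0476), Lrpap1, the chaperone of lipoprotein receptors, by 1.26 ± 0.34 (limma, adjusted p = 0.0305), and Sorl1, a sorting receptor that binds Apoe, by 1.23 ± 0.34 (limma, adjusted p = 0.031). None of the 50 was called in C after rescaling or quantile normalization, with the number series as a term or in its first part alone, nor without any one of olfactory bulb C replicate 1, cortex C replicate 1, cortex C replicate 2 and brainstem C replicate 1, while 14 were called without cortex D replicate 1. The Lmf1 call was lost in 30 of 43 alternatives. In A and D no pathway gene was called.

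In E, 30 of the 50 fell and none rose, beside 42.5% of all genes called lower, with a median of -1.06 beside -0.66 over all genes. Pltp, the phospholipid transfer protein, fell by 2.31 ± 0.51 on the log2 scale (limma, adjusted p = 0.00143), Nr1h2 by 2.27 ± 0.38 (limma, adjusted p = 0.000147), Lmf1 by 2.19 ± 0.47 (limma, adjusted p = 0.00113) and Srebf2, the transcription factor of cholesterol synthesis, by 2.15 ± 0.40 (limma, adjusted p = 0.000356). Nr1h2 was at 0.265 FPKM or less in all E libraries, against a median of 11.9 in B. The count was 10 lower after rescaling, 9 lower and 4 higher after quantile normalization, 19 without the 4 libraries and 1 once the number series entered the fit, where the calls of these 4 genes were lost. Pltp also lost its call on both other scales and Srebf2 after rescaling.

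Between regions the pathway counts lay near those of all genes: 2 of the 50 were called higher in the olfactory bulb than in the cortex (4 without the 4 libraries), beside 3.08% of all genes, and 4 higher than in the brainstem, beside 4.19%. Angptl4, an inhibitor of Lpl, rose in the olfactory bulb against the cortex by 1.40 ± 0.34 (limma, adjusted p = 0.0131), with a median over A to E of 4.24 FPKM against 0.608, and Lipg, the endothelial lipase, by 0.57 ± 0.14 (limma, adjusted p = 0.0192) at levels of at most 1.94 FPKM. Against the brainstem, Lrp4 rose by 1.82 ± 0.44 (limma, adjusted p = 0.0114), Cyp46a1, the brain cholesterol hydroxylase, by 1.33 ± 0.37 (limma, adjusted p = 0.0283), Angptl4 by 1.17 ± 0.34 (limma, adjusted p = 0.038) and Lipg by 0.64 ± 0.14 (limma, adjusted p = 0.00664). Lrp4 had medians of 12.9 FPKM in the olfactory bulb and 3.62 in the brainstem. The Lipg call against the cortex was lost without olfactory bulb C replicate 2 or cortex E replicate 1 and after quantile normalization, where the Lipg call against the brainstem was lost too. The Lrp4 call was lost with the number series as a term, the Cyp46a1 call in 15 and the second Angptl4 call in 20 of 43 alternatives. Between cortex and brainstem none of the 50 was called.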

How the data were processed

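RNA of 36 libraries was measured by sequencing after column extraction, amplification from random and oligo(dT) primers and Illumina library preparation, per the labels' protocols. The deposited tables hold FPKM per UCSC transcript, which the authors made with TopHat and Cufflinks on mm10, per the submitters' processing notes; bcl2fastq was 1.8.3, and the other versions were not given in the sources used here. The deposited coverage column was used as a signal of relative depth only, as its ratio to FPKM. The tables hold no read counts.

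By position, GENCODE vM21 genes took up the transcripts (52543 of 63241, 83.1%, holding 89.5% to 96.7% of the nuclear FPKM of a library), and FPKM were summed per gene. limma 3.58.1 (R 4.3.3) fitted log2(FPKM + 1) over 18 groups with 18 residual degrees of freedom and a trend in the variance, two-sided, with Benjamini-Hochberg adjustment over 13578 genes. A log2 difference on this scale understates the change of low genes. Libraries were numbered in accession order, so no number pairs them. Alternatives were rescaling to a sum of 1000000, quantile normalization, a pseudocount of 0.1, no filter, the number series as a term or its first part alone, and leaving out libraries singly or 4 together; for pathway genes they were added after seeing the data. In the first part alone, which holds no D or E library, every comparison used A, B and C as the lettered populations. The 8 genes, the pathway and marker lists were chosen with earlier results of these data known. Named pathway genes are, per comparison and direction, the called ones, at most 4 by size; nearest genes are the 3 of highest Pearson r.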

Additional observations from a re-analysis of the deposited data

Results flagged for a closer look

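A transcript inside the Lpl locus, at chr8:68905543-68906931 (1389 bases), was assigned to no gene and so entered no value of Lpl. Its highest level was 1.518 FPKM, in brainstem B replicate 1, above the highest Neg value of 0.362 FPKM, and it was above 0 in 10 libraries. That is higher than any value of Lpl itself.

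Abca1 was higher in E than in Neg in the cortex and slightly lower in the brainstem, where all values lay under 1 FPKM. Cortex E minus cortex Neg was 0.91 on the log2(FPKM + 1) scale, with 2.62 and 4.99 FPKM in E against 1.88 and 1.14 in Neg, and both E libraries were above both Neg libraries. Brainstem E minus brainstem Neg was -0.15, with 0.137 and 0.0367 FPKM in E against 0.224 and 0.193 in Neg, and both E libraries were below. The difference between the regions was not tested. The 4.99 FPKM belong to cortex E replicate 2, which carried olfactory bulb genes, and the 0.137 FPKM to brainstem E replicate 1, the shallowest library.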

How the results depend on the processing

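Numbers of genes called and, of the 8 genes, of those called are given where they differ by more than 1.5 times from the reported 2765 and 6 (A to E minus Neg), 0 and 0 (A), 2139 and 3 (B), 1021 and 3 (C), 14 and 0 (D), 5784 and 6 (E), 506 and 2 (olfactory bulb minus cortex), 705 and 2 (olfactory bulb minus brainstem) and 238 and 1 (cortex minus brainstem). After rescaling they were 476 and 3 against Neg, 640 and 1 in B, 1 and 0 in C, 0 genes in D and 3002 and 3 in E, with 2 of the 8 in cortex minus brainstem. After quantile normalization they were 945 and 3 against Neg, 808 and 1 in B, 6 and 0 in C and 1075 and 2 in E, with 1 of the 8 in olfactory bulb minus brainstem. A pseudocount of 0.1 gave 1330 genes in B, 137 and 1 in C and 5 in D, with 1 of the 8 in olfactory bulb minus brainstem. Without a filter there were 13 genes in A, 625 and 1 in C and 8 in D, and 1, 1, 1 and 0 of the 8 in B, olfactory bulb minus cortex, olfactory bulb minus brainstem and cortex minus brainstem. With the number series as a term there were 1 gene in A, 729 and 0 in B, 0 and 0 in C, 0 in D, 135 and 0 in E and 432 and 0 in olfactory bulb minus brainstem. The first number series alone gave 8638 genes against Neg, 31 in A, 719 and 0 in B and 0 and 0 in C, with 1, 1 and 0 of the 8 in the region comparisons in the order above. D and E could not be fitted there, having no library. These counts are thus for comparisons among A, B, C and Neg and not for the reported ones. Without the 4 libraries there were 638 genes in C, 2625 in E, 1064 in olfactory bulb minus cortex and 1296 in olfactory bulb minus brainstem.

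Leaving out each library in turn gave 605 to 4217 genes and 5 to 6 of the 8 against Neg, 0 to 11 and 0 in A, 1179 to 2941 and 0 to 3 in B, 27 to 2634 and 0 to 4 in C, 5 to 208 and 0 in D, and 3645 to 6868 and 6 to 7 in E. It gave 322 to 735 and 1 to 2 in olfactory bulb minus cortex, 467 to 1103 and 0 to 2 in olfactory bulb minus brainstem, and 160 to 428 and 0 to 2 in cortex minus brainstem. The cause of these changes was not tested, except that without a filter more genes are adjusted for and without a library fewer samples are fitted. Calls split into higher and lower as 2090 and 49 in B, but as 520 and 120 once rescaled, or 544 and 264 with quantiles equalized. In E the split was 14 and 5770 against 511 and 564 with quantiles equalized. For olfactory bulb minus cortex it was 418 and 88 against 296 and 178, and for olfactory bulb minus brainstem 569 and 136 against 377 and 275, with quantiles equalized. In single-gene differences, 2543 fits of the 7 genes kept direction and side of the threshold or stayed uncalled, 138 lost a call and 14 gained one. Lmf1 in C turned to -0.04 with the number series as a term. No paired analysis was possible because the labels give no replicate numbers, so none pairs libraries of different groups. Limits: the levels of Apoc1, Abcg1 and Lpl are set by few fragments, and the tables hold no counts, so depth is known in relative terms only.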
